A study of Mus musculus with 7 samples.

Results

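The genes described here are 10 mouse genes that handle heme and iron: Hmox1, Blvra, Blvrb, Slc48a1, Fech, Ftl1, Fth1, Tfrc, Slc40a1 and Ireb2. They were found by gene symbol among the 46603 gene rows of RNA-seq count tables, and all 10 passed the filter on low counts, as did 16731 genes in all. The RNA came from TRAMP-C1, a line from a prostate tumour of the C57BL/6-TgN(TRAMP)8247Ng strain, whose transgene drives viral T antigen in prostate epithelium, so every library shares that transgene. The study compared 3 libraries of cells transduced with a lentivirus made from the Lv229 plasmid carrying a PAX8-NFE2L2 fusion gene with 3 libraries of cells given the matching empty vector. Cells met the virus for 12 h and then grew for 24 h in fresh medium. No selection step and no promoter of the construct is named in the sources used here. One further library is labelled WT. It names no vector, and its treatment text is the same as that of the other libraries, so whether its cells met virus is not stated. NFE2L2 is the gene of the transcription factor NRF2, and PAX8 encodes a paired box transcription factor. The labels do not say whether the libraries of a group came from separate cultures, so a p-value measures only the spread between these libraries, which may be technical. They are all of 1 cell line.

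Cells take up iron bound to transferrin through the transferrin receptor, keep it in ferritin shells and release it through ferroportin, the iron exporter of vertebrate cells. Heme, the iron porphyrin of many enzymes, is completed when ferrochelatase inserts iron, and it is opened by heme oxygenase into biliverdin, carbon monoxide and free iron. Biliverdin reductases turn biliverdin into bilirubin. Several genes of this system, heme oxygenase 1, ferroportin and both ferritin chains among them, are textbook targets of NRF2. Iron regulatory proteins bind hairpins, called iron-responsive elements, in some of the same transcripts: in the 5′ untranslated region they hold back translation when iron is scarce, and in the 3′ untranslated region of the transferrin receptor they protect the transcript. The values below are RNA counts and say nothing of translation or of iron itself.

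The members differ in whether they carry such a hairpin, so the elements were read from the GENCODE transcripts of GRCm38. A search of the transcript strand for C, 5 bases that pair, the loop CAGTGN and the 5 bases they pair with (G-T pairs allowed) found matches in 4 of the 10 genes: 1 in the 5′ untranslated region of each of Ftl1, Fth1 and Slc40a1, and 4 in the 3′ untranslated region of Tfrc. Of 21836 genes with 1 principal transcript each, 1.2% had a match in any region, 0.0962% in the 5′ untranslated region and 0.504% in the 3′ untranslated region. The 28 bases of each element are shown because they set the 4 genes apart from the other 6. Capitals mark the loop:
Ftl1, chr7:45459779-45459806, minus strand: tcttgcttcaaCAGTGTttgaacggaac
Fth1, chr19:9982733-9982760, plus strand: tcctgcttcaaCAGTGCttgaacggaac
Slc40a1, chr1:45925465-45925492, minus strand: aacttcagctaCAGTGTtagctaagttt
Tfrc, chr16:32631220-32631247, plus strand: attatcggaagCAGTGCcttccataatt
Tfrc, chr16:32631599-32631626, plus strand: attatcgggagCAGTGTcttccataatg
Tfrc, chr16:32631664-32631691, plus strand: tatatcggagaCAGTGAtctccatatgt
Tfrc, chr16:32631711-32631738, plus strand: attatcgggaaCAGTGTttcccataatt
The elements of the 2 ferritin chains matched at 26 of 28 bases and differed by T3C and T17C (the Ftl1 base, the position from 1 at the 5′ end, the Fth1 base). A match is a description of the letters, not proof of a working element. The search read 1 transcript a gene and allowed no unpaired base among the 5 pairs. The lack of a match therefore does not show that a gene has no element.

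Gene counts per library lay between 26368182 and 59597170. Empty vector 3 and fusion 3 were each sequenced on a lane of their own, apart from the 5 other libraries, and had the most reads with several alignments (45.32% and 44.78%, against 36.1 to 38.89%). Pax8, the mouse gene, checked the labels: it stood at 6.40, 8.54 and 5.58 CPM (read counts scaled to a common library size) in the 3 fusion libraries and at 0.0334 to 0.217 CPM in the others. Nfe2l2 was at 111 to 125 CPM in the empty vector and WT libraries and at 123 to 145 CPM in the fusion libraries, and it did not pass the test. Among the prostate epithelial markers, Krt8 reached at most 1.90 CPM and Epcam 0.53 CPM, and Hoxb13 was near 0, so these 3 markers were nearly absent from cells labelled prostate epithelial. Markers of cells that could bring heme and iron genes with them were low: the summed macrophage list (9 genes; Adgre1, Spic and Vsig4 at 0 counts) was at 2.12 to 3.19 CPM with empty vector and 3.53 to 4.18 CPM with fusion, and the summed erythroid list (9 genes) at 0.368 to 1.40 and 0.262 to 4.84 CPM, where Hbb-bs in fusion replicate 1 made up 3.35 CPM. WT stood at 3.71 CPM for the macrophage list, inside the fusion range, and at 0.221 CPM for the erythroid list. Cd68 and Csf1r made up most of the macrophage sum, and neither passed (edgeR adjusted p = 0.89 and 0.76). The part of such cells in the results was not tested. In bulk RNA, fewer cells of a type and less RNA per cell cannot be told apart.

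Fusion libraries held more RNA than empty vector libraries, without overlap, for 7 of the 10 genes, across heme import, heme breakdown, heme synthesis, ferritin and iron export, and the largest difference was in the exporter Slc40a1. The importer Tfrc was higher within each replicate number while its groups overlapped, and Blvra and Ireb2 passed no test. In edgeR's quasi-likelihood test with Benjamini-Hochberg adjustment at 0.05 over all tested genes, 2 of the 10 rose, Slc40a1 and Ftl1, and 0 fell, where 1.69% of all tested genes rose and 0.353% fell. Libraries of the same replicate number deviated together, so the same test was also run with the number as a block (replicate block). In that fit 8 of the 10 rose and 0 fell, against 7.63% and 5.5% of all tested genes. DESeq2 called 7 of the 10 higher and 0 lower, all but Tfrc of those 8, against 3.72% and 1.79% of all tested genes. The 7 genes without overlap compare with 9.16% of all tested genes in which every fusion library lay above every empty vector library (6.65% lay the opposite way). The median log2 fold change was 1.02 over the 10 genes and 0.01 over all tested genes. The genes were chosen with such values known, so these counts describe them and are no independent evidence.

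**Figure D1:**
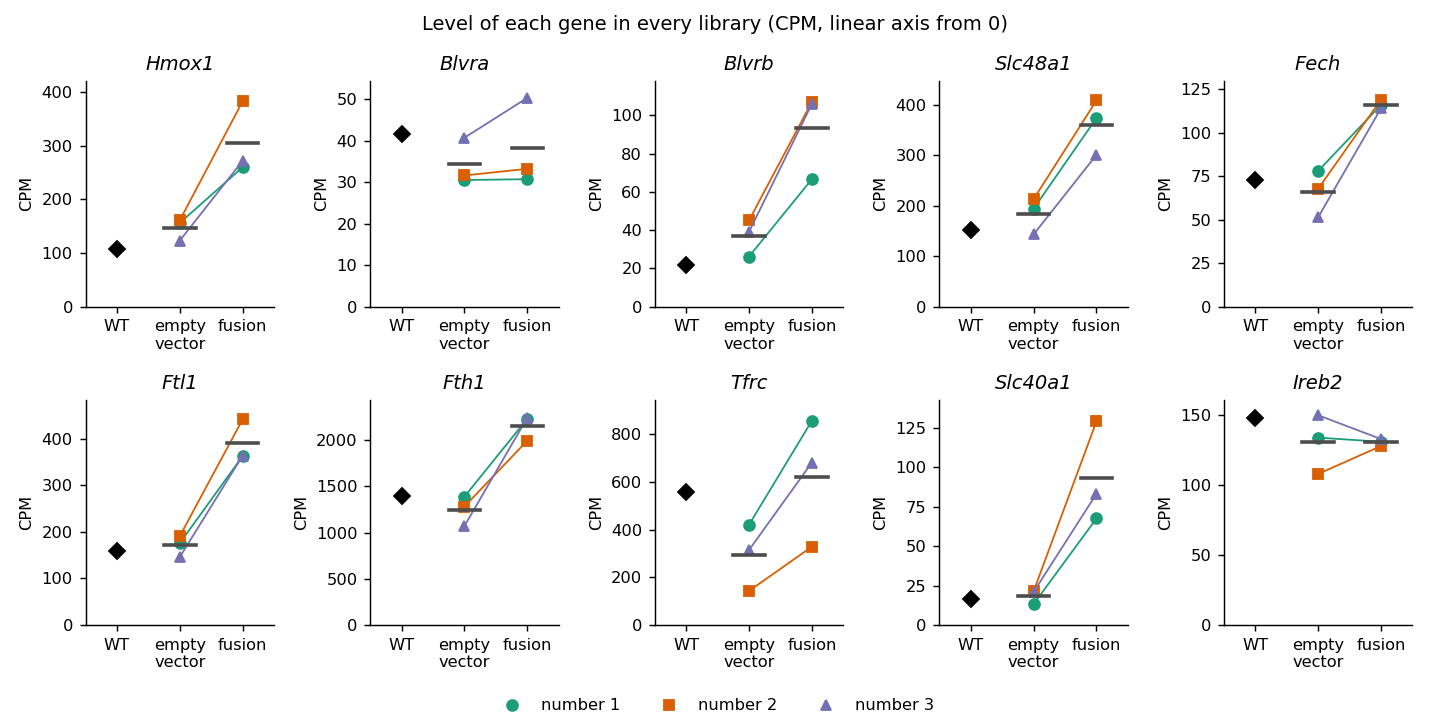
Level of each of the 10 genes in CPM (linear axes from 0) in the WT library (diamond) and in the empty vector and fusion libraries (circle, square and triangle for replicate numbers 1, 2 and 3, joined by number; bars are group means). Slc40a1 lies between 13.2 and 21.3 CPM with empty vector and between 67.5 and 129 CPM with fusion, while the Blvra and Ireb2 groups overlap and the Tfrc lines rise side by side from very different levels.

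Slc48a1 encodes HRG1, which carries heme out of the endolysosome (chromosome 15, 97778520 to 97792692, plus strand, GRCm38). Its level was 194, 213 and 143 CPM in empty vector replicates 1, 2 and 3 and 374, 409 and 301 CPM in fusion replicates 1, 2 and 3. Every fusion library was above every empty vector library, and library 3 was the lowest of each group. The log2 fold change was 0.98 ± 0.23 (SE, n = 3 and 3 libraries, edgeR adjusted p = 0.087), which missed the threshold, and with the replicate block Slc48a1 rose by 0.99 (adjusted p = 0.0013). Its exons share 29 bases with Hdac7 on the opposite strand, and whether the counting used strand is not stated in the sources at hand. The WT library, at 151 CPM, lay within the empty vector range.

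Hmox1, the inducible heme oxygenase that opens the heme ring, lies on chromosome 8 (75093621 to 75100589, plus strand). It was at 156, 161 and 123 CPM with empty vector and at 260, 383 and 272 CPM with fusion. The lowest fusion library stood above the highest empty vector library, and fusion replicate 2 was the highest of all. The log2 fold change was 1.06 ± 0.23 (95% interval 0.53 to 1.58, edgeR adjusted p = 0.065). With the replicate block Hmox1 rose by 1.04 (adjusted p = 0.0040). Its constitutive relative Hmox2 was at 42.6, 44.8 and 54.3 CPM with empty vector and at 42.0, 45.1 and 56.7 CPM with fusion, a log2 fold change of 0.02 (interval -0.45 to 0.50). Hmox2 was the other gene of the breakdown list and did not pass in either fit. Its exons share 892 bases with Cdip1 on the opposite strand, and use of strand in counting is not stated. The level of Hmox2 and the ratio below carry that limit. The count ratio of Hmox1 to Hmox2 was 3.67, 3.59 and 2.27 with empty vector and 6.19, 8.51 and 4.80 with fusion. That ratio was higher in all 3 fusion libraries (two-sided exact permutation p = 0.10, and 0.133 after adjustment over 4 such ratios). With 3 against 3 libraries no smaller p is possible, so this test cannot pass 0.05.

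Of the 2 biliverdin reductases, Blvrb rose with the replicate block and Blvra passed neither fit. Blvrb, which reduces flavins and the beta isomer of biliverdin (chromosome 7, 27447978 to 27466144, plus strand), was at 26.1, 45.0 and 39.0 CPM with empty vector and at 66.6, 107 and 106 CPM with fusion. Replicate 1 was the lowest of both groups, and the groups did not overlap. Its log2 fold change was 1.35 ± 0.28 (edgeR adjusted p = 0.059, and 0.00066 with the replicate block, where it rose). Blvra, which makes bilirubin from the alpha isomer (chromosome 2, 127070665 to 127097084, plus strand), was at 30.5, 31.6 and 40.7 CPM with empty vector and at 30.7, 33.2 and 50.3 CPM with fusion. Replicate 3 was the highest in each group, and the groups overlapped. Its log2 fold change was 0.15, with an interval from -0.42 to 0.72 (edgeR adjusted p = 0.97, and 0.43 with the block). Without fusion replicate 3 it was -0.10. The count ratio of Blvrb to Blvra was 0.854, 1.42 and 0.957 with empty vector and 2.17, 3.22 and 2.11 with fusion (two-sided exact permutation p = 0.10, the smallest possible, 0.133 adjusted). In the WT library it was 0.517, below all of them.

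One promoter among the members held the core of the antioxidant response element, the DNA motif that NRF2 and its small MAF partners bind. RefSeq promoters (250 bases before to 50 after a start, GRCm38.p6) were at hand for 6 of the 10 genes, in 9 windows; Hmox1, Slc40a1, Slc48a1 and Fech had none. TGACNNNGC, searched on both strands, was found in 1 of these 9 windows and in 12.4% of 32851 promoters in all. That window belongs to Blvra, and the match lies on the opposite strand, 49 to 41 bases before the start. The window is shown because it belongs to 1 of the 2 members that passed neither fit, with the match in capitals:
Blvra, chr2:127070588-127070636, plus strand: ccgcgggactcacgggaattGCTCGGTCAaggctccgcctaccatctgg
A match does not show binding, and the lack of one covers only the 300 bases of a window.

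Fech, on chromosome 18, encodes ferrochelatase, the last enzyme of heme synthesis. It stood at 78.0, 67.7 and 51.3 CPM with empty vector and at 116, 119 and 114 CPM with fusion. The fusion libraries lay close together (SD 2.76 CPM) although the empty vector libraries did not (SD 13.5 CPM), and the groups did not overlap. The log2 fold change was 0.82 ± 0.21 (edgeR adjusted p = 0.12). With the replicate block Fech rose by 0.84 (adjusted p = 0.0090), and this call was lost when both libraries numbered 2 were left out of that fit (adjusted p = 0.080). Of the 7 other tested heme synthesis genes, 0 passed without the block. With the block 0 rose and 2 fell, where 7.63% of all tested genes rose and 5.5% fell. They were Cpox and Ppox, the 2 enzymes that act before ferrochelatase, with block log2 fold changes of -0.39 each (edgeR adjusted p = 0.029 and 0.045). Neither kept that call without the libraries numbered 2 (0.20 and 0.27), Ppox lost it also without those numbered 3 (0.075), and both overlap a gene on the opposite strand. WT had 36.6 CPM of Cpox, below the lowest fusion library (37.0 CPM), and 24.2 CPM of Ppox, inside the fusion range. Alas1, the first and rate-limiting enzyme outside red cells, was at 30.6 ± 7.40 CPM with empty vector and 39.1 ± 6.05 CPM with fusion (SD, n = 3 each) and did not pass in either fit. The erythroid Alas2 was at 0.305 CPM or less throughout.

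The lists held 10 other tested genes that carry or bind heme. Pgrmc1, a heme-binding membrane protein that contacts ferrochelatase, was at 278 ± 51.3 CPM with empty vector and 666 ± 151 CPM with fusion (SD, n = 3 each) and rose by a log2 fold change of 1.26 (edgeR adjusted p = 0.043). That call held with fusion replicate 3 left out (0.049) and was lost when any of the other 5 libraries was (up to 0.17), but with the replicate block (0.0059) it held whichever number was left out. Flvcr1, a heme and choline transporter at the cell surface, passed with the block alone, at 28.7, 19.3 and 20.1 CPM with empty vector and 43.7, 24.1 and 35.7 CPM with fusion (block log2 fold change 0.58, adjusted p = 0.028). It missed the threshold when the libraries numbered 1 or 2 were left out (0.11 and 0.072). Hebp1, a cytosolic heme-binding protein, fell with the block, at 12.2, 25.9 and 39.9 CPM with empty vector and 5.51, 11.6 and 17.9 CPM with fusion (block log2 fold change -1.16, adjusted p = 0.0018). Its groups overlapped, and within each number the fusion library was the lower. WT, at 11.8 CPM of Hebp1, lay inside the fusion range, and at 29.8 CPM of Flvcr1 it lay above all 3 empty vector libraries. Flvcr1 and Hebp1 both overlap genes on the opposite strand.

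Ferritin is built from a light chain, Ftl1, which helps the mineral core form, and a heavy chain, Fth1, which oxidises iron. Ftl1 (chromosome 7, 45457944 to 45459884, minus strand) was at 176, 191 and 146 CPM with empty vector and at 363, 442 and 364 CPM with fusion. Every fusion library was above every empty vector library by a wide margin. Ftl1 rose by a log2 fold change of 1.19 ± 0.20 (interval 0.73 to 1.65, edgeR adjusted p = 0.025), a fold of 2.28. The call was lost when any library but fusion replicate 3 was left out, with adjusted p between 0.056 and 0.11 and log2 fold changes between 1.09 and 1.28. With the block (adjusted p = 0.00097) it held whichever number was left out.

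The Ftl1 level is likely too low. Of the 919 stretches of 50 bases in its transcript, the read length, 833 (90.6%) also occur in transcripts of 17 other gene models, Ftl1-ps1, Ftl1-ps2 and Ftl2-ps among them, and reads with several alignments were not counted to a gene. Those 3 pseudogene rows held between 0 and 39 counts a library, against 6046 to 24143 for Ftl1. Ftl1 exons also share 355 bases with Gm10252 on the opposite strand and 109 with Gm22133 on the same strand, both among the 17 models. Stretches shared only with these need not have several alignments, so 90.6% is not the share of reads lost that way. The fold change rests on the reads that were unique.

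Fth1 (chromosome 19, 9980598 to 9985098, plus strand) was the most abundant of the 10 genes in counts. It was at 1388, 1281 and 1070 CPM with empty vector and at 2230, 1994 and 2242 CPM with fusion, without overlap. The fusion libraries differed little from each other (SD 140 CPM around 2155 CPM). The log2 fold change was 0.79 ± 0.21 (edgeR adjusted p = 0.13), and with the replicate block Fth1 rose by 0.80 (adjusted p = 0.0078). Of its 880 stretches of 50 bases, 58 occur in 1 other gene model, Gm6977. The ratio of Fth1 to Ftl1 counts was 7.90, 6.70 and 7.35 with empty vector, 6.15, 4.51 and 6.15 with fusion and 8.72 in WT. It was lower in all 3 fusion libraries than in any other (two-sided exact permutation p = 0.10, 0.133 adjusted). That is the smallest p this design allows, so the test cannot pass 0.05, and the intervals of both log2 fold changes overlap (0.73 to 1.65 for Ftl1 and 0.31 to 1.27 for Fth1). The ratio is not one of molecules, because of the length and the shared stretches of Ftl1. None of the 3 other tested genes of the storage list passed in either fit. They include Ncoa4, the receptor that takes ferritin to the lysosome, at 7.72 ± 0.735 and 8.04 ± 2.30 CPM, and Pcbp1, an iron chaperone that loads ferritin (436 ± 59.7 and 492 ± 23.3 CPM, log2 fold change 0.18, adjusted p = 0.92).

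Tfrc, the transferrin receptor (chromosome 16, 32608920 to 32632794, plus strand), showed the widest spread within groups. It was at 420, 143 and 314 CPM with empty vector and at 856, 328 and 681 CPM with fusion. Replicate 2 was the lowest and replicate 1 the highest of both groups, and fusion replicate 2 fell below empty vector replicate 1. The coefficient of variation was 47.7% with empty vector and 43.3% with fusion, where the other 9 genes had at most 26.3% and 34.2%. Within each number, however, the ratio of fusion to empty vector was 2.04, 2.28 and 2.17. The log2 fold change was 1.09 with an interval from 0.04 to 2.13 and an edgeR adjusted p of 0.43. With the replicate block Tfrc rose by 1.11, with an interval from 0.92 to 1.30 (adjusted p = 0.00091), and this held whichever number was left out (adjusted p up to 0.016). The plot of ratios by number shows this range beside those of the other genes. It was not particular to Tfrc: Slc48a1 had ratios of 1.93, 1.93 and 2.1, and Blvrb of 2.55, 2.38 and 2.73.

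**Figure D2:**
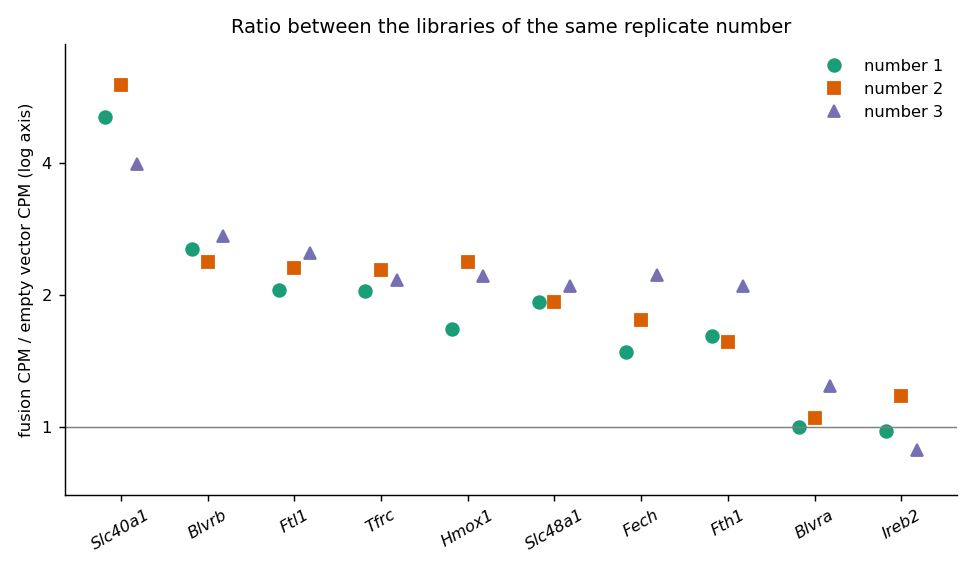
Ratio of fusion CPM to empty vector CPM between libraries of the same replicate number (log axis; circle, square and triangle for numbers 1, 2 and 3; the line marks a ratio of 1). Slc40a1 has ratios of 5.11, 6.05 and 3.98, Tfrc stays between 2.04 and 2.28, Slc48a1 between 1.93 and 2.1, and Blvra and Ireb2 lie around 1.

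Other genes of iron uptake and reduction moved in both directions. Of 12 tested, 1 rose without the block and, with it, 2 rose and 1 fell. Over all tested genes 1.69% rose without the block, and 7.63% rose and 5.5% fell with it. The 1 that fell is near that share. Lcn2, lipocalin 2, which binds iron-carrying siderophores, was at 0.159 ± 0.0582 CPM with empty vector and 0.679 ± 0.0152 CPM with fusion, a very low level. Its log2 fold change was 2.10 (edgeR adjusted p = 0.046). Lcn2 passed the filter on low counts only through its fusion libraries, so this call is a description and no evidence. The call was lost when any single library was left out (0.056 to 0.18). Slc11a2, the iron transporter DMT1, rose with the block from 58.9 ± 15.7 to 85.2 ± 16.0 CPM (0.55, adjusted p = 0.013), though not without the libraries numbered 2 (0.080). Its exons share 402 bases with Gm5475 on the opposite strand. Steap3, the reductase that acts on iron in the transferrin endosome, was at 20.7, 22.2 and 14.3 CPM with empty vector and 9.55, 7.75 and 8.16 CPM with fusion, the reverse of Tfrc, its partner in that route. Its log2 fold change was -1.17 (edgeR adjusted p = 0.058), and it fell with the block (adjusted p = 0.0080), but not without the libraries numbered 2 (0.072). Without empty vector replicate 3 it passed without the block too (0.037).

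Slc40a1 encodes ferroportin, through which iron leaves the cell (chromosome 1, 45908068 to 45926523, minus strand). It was at 13.2, 21.3 and 20.9 CPM with empty vector and at 67.5, 129 and 83.1 CPM with fusion. The lowest fusion library stood far above the highest empty vector library, and in both groups replicate 1 was the lowest and replicate 2 the highest. Slc40a1 rose by a log2 fold change of 2.33 ± 0.31 (interval 1.61 to 3.06, edgeR adjusted p = 0.0096), a fold of 5.05. The call held whichever of the 6 libraries was left out (log2 fold change 2.03 to 2.52, adjusted p 0.014 to 0.041). Without both libraries numbered 3 the log2 fold change was 2.52 and the edgeR adjusted p 0.051. With the replicate block the same 4 libraries gave 2.7e-06, but that fit borrows most of its spread from other genes. Of all tested genes, 98.3% had a lower log2 fold change. The last of the 4 count ratios, Tfrc to Slc40a1, was 31.8, 6.74 and 15 with empty vector and 12.7, 2.54 and 8.2 with fusion. Its groups overlapped (two-sided exact permutation p = 0.3, also after adjustment).

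The 2 other tested export genes, both copper-bearing ferroxidases that act beside ferroportin, passed with the block alone. In that fit 7.63% of all tested genes rose. Cp, ceruloplasmin, was at 130, 202 and 170 CPM with empty vector and 267, 436 and 288 CPM with fusion, without overlap. Its log2 fold change was 0.98 (edgeR adjusted p = 0.14), and it rose by 0.97 with the block (adjusted p = 0.0025), whichever number was left out. Heph, hephaestin, was at 0.251, 0.269 and 2 CPM with empty vector and 3.51, 5.07 and 6.74 CPM with fusion. Its log2 fold change was 2.63 (edgeR adjusted p = 0.19). It passed with the block (3.13, adjusted p = 0.025) or without empty vector replicate 3 (4.28, adjusted p = 0.0058), but not with the block once the libraries numbered 1 or 2 were left out (0.11 and 0.10). All 3 tested genes of iron export thus had fusion libraries above all empty vector libraries, a pattern found in 9.16% of all tested genes. Cp and Heph each overlap a gene on the opposite strand, Hps3 by 108 bases and Hsf3 by 29.

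**Figure D3:**
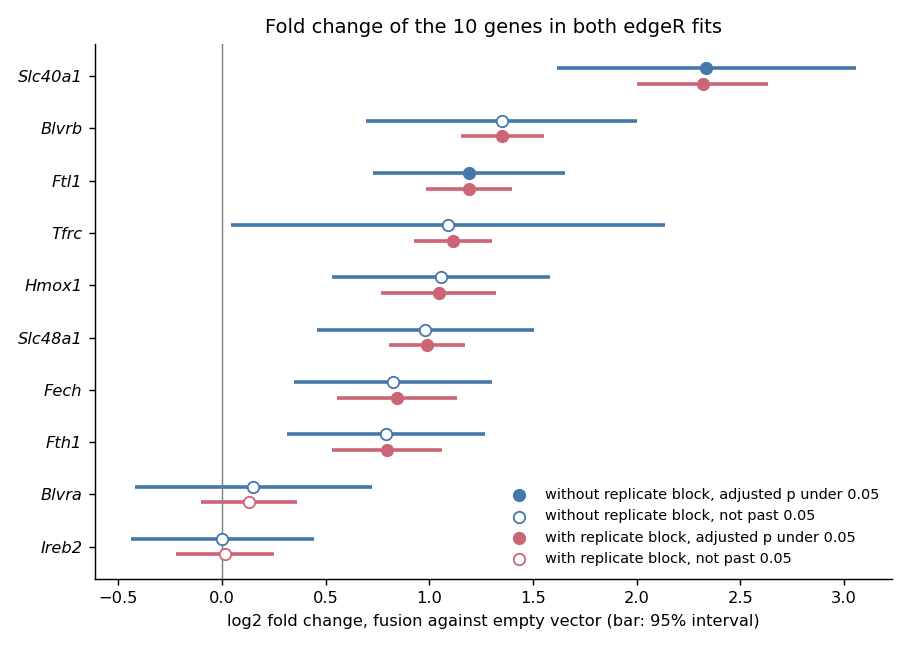
Log2 fold change of fusion against empty vector for the 10 genes in the edgeR fits without (blue) and with (red) the replicate block; bars are 95% intervals and filled points have an adjusted p under 0.05. The estimates hardly differ between the fits (Tfrc 1.09 and 1.11), and the intervals are narrower with the block, so that 2 filled points become 8.

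Ireb2 encodes iron regulatory protein 2, which binds the hairpins shown above (chromosome 9, 54863789 to 54912530, plus strand). It was at 134, 108 and 150 CPM with empty vector and at 131, 128 and 133 CPM with fusion. All 3 fusion libraries lay inside the empty vector range, with SDs of 2.72 and 21.2 CPM. The log2 fold change was 0.00 with an interval from -0.44 to 0.44, and 0.01 with the block (interval -0.22 to 0.25), so these libraries leave room for a change within those bounds. Of the 10 other tested genes of iron sensing and the iron hormone axis, 0 passed without the block, and with it 0 rose and 1 fell. With the block 7.63% of all tested genes rose and 5.5% fell, so 1 of 10 is near that share. Aco1, iron regulatory protein 1, was at 77.8 ± 26.2 and 83.6 ± 20.9 CPM. Fbxl5, which marks iron regulatory proteins for degradation, was at 107 ± 32.7 and 89.6 ± 18.5 CPM. The gene that fell was Erfe, erythroferrone, a hormone that lowers hepcidin, at 9.65, 10.2 and 5.10 CPM with empty vector and 3.18, 4.47 and 1.80 CPM with fusion (log2 fold change -1.39, edgeR adjusted p = 0.18; -1.43 and 0.0046 with the block). WT, at 2.53 CPM, lay inside the fusion range. Erfe overlaps Ilkap on the opposite strand. Hepcidin itself, Hamp and Hamp2, was at 0 counts in all 7 libraries, which allows at most 0.0503 to 0.114 CPM (3 counts of a library's total, counting error only).

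Regulators of the NRF2 and heme response had 0 of 8 genes past the test without the block. With it 3 rose and 0 fell: Keap1, the adaptor that marks NRF2 for degradation (53.9 ± 4.74 to 88.3 ± 7.16 CPM, log2 fold change 0.71, block adjusted p = 0.0034), Bach1, a heme-sensing repressor of Hmox1 and the ferritin genes (44.7 ± 9.80 to 78.7 ± 10.0 CPM, 0.83, 0.0080), and Mafg, a small MAF partner of both factors (118 ± 8.06 to 162 ± 18.8 CPM, 0.45, 0.018). The fusion libraries lay above all empty vector libraries for each of them, yet with the libraries numbered 2 left out none of the 3 passed (0.051, 0.079 and 0.17). The WT library had 87.0 CPM of Keap1, inside the fusion range. Exons of Keap1 share 510 bases with Gm16754 on the opposite strand, and those of Mafg share 124 with Sirt7 on the same strand. Among 19 tested genes of iron-sulfur cluster assembly, 0 passed without the block and 1 rose with it, Nubp2, a cytosolic scaffold protein (0.52, adjusted p = 0.015, and 0.081 and 0.095 without the libraries numbered 1 or 2). WT had 41.7 CPM of Nubp2, inside the fusion range. Over all 9 roles, the 72 tested genes of the lists other than the 10 had a median log2 fold change of 0.08, with 2 that rose and 0 that fell without the block (1.69% and 0.353% of all tested genes) and 10 and 5 with it (7.63% and 5.5%). The 5 that fell are near the share over all genes. Of the 2 that rose without the block, Lcn2 entered the test only through its fusion libraries. With the block, 4 of these 15 calls, those of Pgrmc1, Cp, Hebp1 and Erfe, held whichever number was left out.

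**Figure D4:**
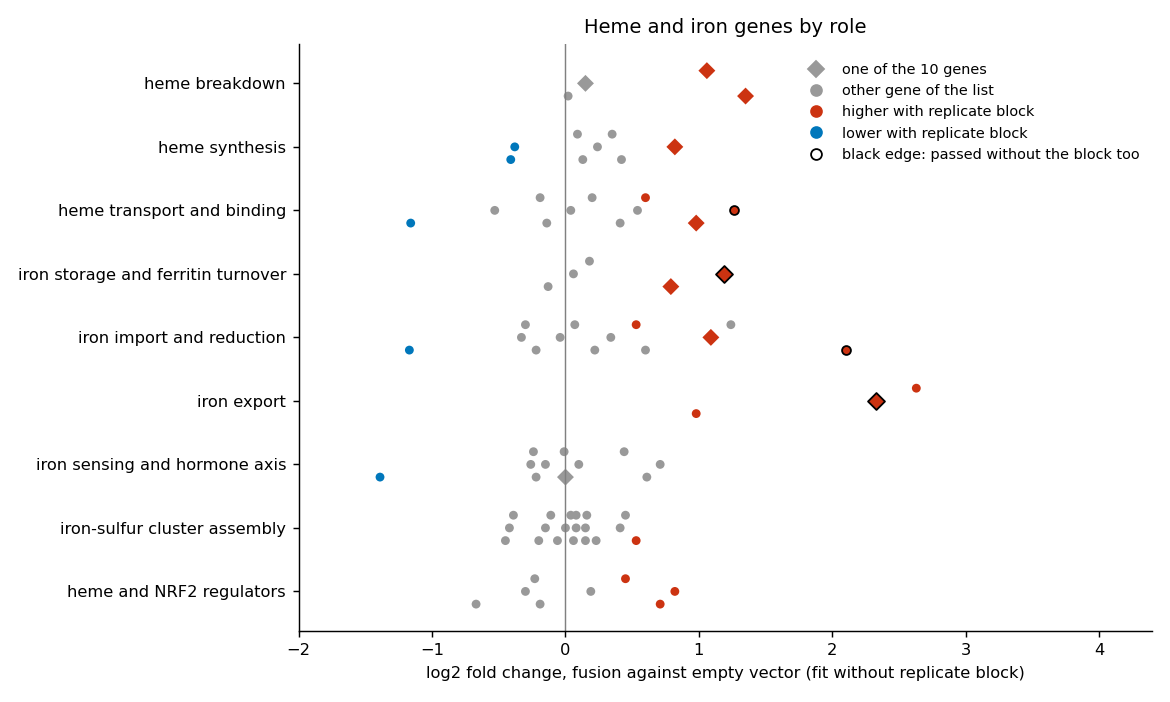
Log2 fold change of fusion against empty vector (fit without the replicate block) for the tested heme and iron genes by role; diamonds are the 10 genes, circles the other list genes, red and blue mark genes higher or lower with the block, and a black edge marks a call without it too. The 3 tested export genes lie furthest to the right as a role, and iron-sulfur cluster assembly is centred near 0 (median 0.06).

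The WT library gave a second reference without replicates. In the 7-library fit, where the lone WT library borrows its spread from the other groups, 0 of the 10 genes and 0 of all 16731 genes differed between empty vector and WT (edgeR; 746 genes had an unadjusted p under 0.05, and DESeq2 called 77). WT was below all 3 empty vector libraries for Hmox1 (108 CPM) and Blvrb (21.6 CPM), above all 3 for Blvra (41.7 CPM), Fth1 (1400 CPM) and Tfrc (558 CPM), and within their range for the other 5. Fusion against WT called 0 of the 10, where 0.341% of all tested genes rose and 0.0956% fell. DESeq2 called 5 of the 10 higher (2.19% of all tested genes higher and 0.789% lower). A fit with the replicate block takes WT as number 1, a pairing that could not be checked, and called 6 higher (4.57% and 5.25%), Tfrc among them. The log2 fold changes for the genes furthest from WT were 2.50 for Slc40a1 (edgeR adjusted p = 0.098), 2.11 for Blvrb (0.12), 1.50 for Hmox1 (0.15) and 1.28 for Ftl1 (0.16). WT lay below all 3 fusion libraries for the same 7 genes that did not overlap between fusion and empty vector; 23.8% of all tested genes had WT below all 3. Tfrc was not among them: WT, at 558 CPM, lay within the fusion range. Its log2 fold change against WT was 0.16 (edgeR adjusted p = 1) and, with the block and its unchecked pairing, 0.66 (adjusted p = 0.029). Both comparisons of the fusion share its 3 libraries, so they are not independent.

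Levels of different genes can be compared only per length. In CPM per kilobase of exon the order with empty vector was Fth1 (359 ± 46.7, SD, n = 3), Ftl1 (127 ± 17.3), Hmox1 (83.8 ± 11.7), Slc48a1 (66.5 ± 13.1), Tfrc (47.3 ± 22.5), Blvra (14.0 ± 2.29), Ireb2 (13.8 ± 2.24), Blvrb (13.2 ± 3.47), Fech (4.75 ± 0.976) and Slc40a1 (2.05 ± 0.506). Hmox1 and Slc48a1, Slc48a1 and Tfrc, and the group of Blvra, Ireb2 and Blvrb did not differ beyond their SDs. The place of Ftl1 cannot be fixed: per 1000 stretches found in no other gene's transcript it was at 1986 CPM with empty vector and Fth1 at 1516 CPM. With fusion, Blvrb (33.5 ± 8.33) stood above Blvra (15.6 ± 4.37) and Ireb2 (13.8 ± 0.287). Slc40a1, the lowest with empty vector, reached 10.3 ± 3.54 and did not differ from Fech (8.40 ± 0.200) beyond its SD. The lower part of this order depends on the length used. In CPM per kilobase of the principal transcript, Blvrb (35.7) stood above Blvra (29.5) and Ireb2 (22.6) with empty vector already, and Slc40a1 with fusion (27.6) stood above Ireb2 (22.7) and Fech (17.7).

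Across the 7 libraries, 7 of the genes (Hmox1, Blvrb, Slc48a1, Fech, Ftl1, Fth1 and Slc40a1) followed each other with Pearson r between 0.727 and 0.978 of log2(CPM + 0.5), a description over libraries that fall into groups. Tfrc correlated with these at 0.145 to 0.631 and Ireb2 at -0.418 to -0.158. Among 16730 other tested genes, those most like Ftl1 were Ephx1 (r = 0.999) and Cat (0.997), and those most like Slc40a1 were Cul9 and Mst1r (0.992 each). Blvrb was most like Hspb1 (0.997) and Mmp13 (0.996), Hmox1 like Otud1 (0.994) and Anks3 (0.992), Slc48a1 like Il1rl1 (0.992) and Pbx4 (0.989), and Fech like Megf9 (0.996) and Rnpepl1 (0.992). Fth1 was most like Gm6977 (0.999), the gene model whose transcript shares stretches with it, and Nceh1 (0.993). Tfrc was most like Cfl1 (0.994) and Cend1 (0.992), and it had the fewest genes above r = 0.95, 31 against 57 to 186 for the other 7.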

How the data were processed

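The authors deposited raw read counts per gene, in 1 table a lane, made with STAR and HTSeq on GRCm38, per the submitters' processing notes; versions, annotation release and use of strand are not stated in the sources at hand. The 12 lane tables were summed to 7 libraries. Lanes of 1 library agreed within sampling noise (chi-square over degrees of freedom 0.978 to 1.01). Rows that name no gene (reads outside genes 5.726 to 6.927%, ambiguous reads 1.222 to 1.479%, several alignments 36.1 to 45.32%) and 92 spike-in rows stayed out. Symbols and positions come from GENCODE release M21 (46091 rows matched) and promoters from RefSeq.

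Counts were tested with edgeR 4.0.16 in R 4.3.3: TMM normalization (factors 0.944 to 1.037 over 7 libraries, used for CPM), filterByExpr with a minimum count of 10, robust quasi-likelihood F test, Benjamini-Hochberg adjustment at 0.05. The fit without a block is the main one and the replicate block an alternative; others were DESeq2 1.42.0, RLE size factors, no filter, all 7 libraries, and libraries or pairs left out. With a pair left out, the block fit has very few residual degrees of freedom and borrows most of its spread from other genes. A call that held there is therefore a weak check. The scripts were tested on simulated counts. Deviations from group means correlated within numbers 1, 2 and 3 (r = 0.5348, 0.4878 and 0.4592 over 16731 genes). Between numbers r was -0.4266 to -0.0497, but centring on group means makes these negative on balance once the others are positive. The pairing rests on the correlations within numbers alone. Limits of 3 counts cover counting error only.

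The 10 genes, the role lists and the rules were chosen with earlier results of these data known. Named beside the 10 are list genes past the threshold in either fit, or the largest change in a role without one; the 2 genes most alike by r for each gene past either; and Pax8 and Nfe2l2. Other genes named for their role (Alas1, Alas2, Ncoa4, Aco1, Fbxl5, Hamp and Hamp2) were chosen after their values were seen. Protein sequences were not used here. Some genes of the marker lists are not reported here.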

Additional observations from a re-analysis of the deposited data

How the results depend on the processing

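Slc40a1 was the one gene of the 10 that passed against empty vector in every setting without a block but one: without both libraries numbered 3 its adjusted p was 0.051. The count of the 10 that rose was 2, and 8 with the replicate block, 7 with DESeq2, 4 with no filter, 1 without both libraries numbered 3 (8 with the block), 8 and 7 with the block without the libraries numbered 1 or 2 (chosen after seeing the data), and 1 to 2 with 1 library left out. For all 82 tested list genes, 4 rose and 0 fell; the replicate block gave 18 and 5, DESeq2 13 and 2, no filter 6 and 1, no libraries numbered 3 2 and 0 (21 and 8 with the block), and the block without numbers 1 or 2 gave 14 and 6, or 9 and 2. With 1 library left out, 1 to 3 rose and 0 to 1 fell.

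Over all genes 282 rose and 59 fell; the replicate block gave 1276 and 920, DESeq2 622 and 300, no filter 397 and 133, the block without numbers 3, 1 or 2 gave 1873 and 1403, 810 and 679, or 297 and 124, and 1 library left out 127 to 298 and 12 to 75. Empty vector against WT had 0 and 0, 6 and 14 with the replicate block, 44 and 33 with DESeq2, 2 and 13 with no filter, and 0 and 0 to 5 with 1 library left out. Fusion against WT had 57 and 16, then 764 and 878, 366 and 132, 177 and 68, and 1 to 87 and 0 to 31; of the 10 genes 0 rose, 6 with the replicate block, 5 with DESeq2 and 2 with no filter. Whether the number pairs WT with the others could not be checked.

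Directions turned for 4 values: Blvra against empty vector (-0.10 without fusion replicate 3, up to 0.29 with another library left out), Ireb2 (-0.01 with DESeq2, with RLE factors, without fusion replicate 3, and with the block without numbers 1; -0.03 with no filter; -0.12 to 0.11 with 1 library left out, lowest without empty vector replicate 2; -0.10 with the block without numbers 2), Slc40a1 in empty vector against WT (-0.30 with the block) and Tfrc in fusion against WT (0.16; -0.15 without fusion replicate 1, up to 0.47 with another library left out, and 0.66, adjusted p = 0.029, with the replicate block). The cause was not tested. Depth of the shared stretches limits Ftl1, and 1 library limits every value of WT.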

Other observations

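Among the other list genes, 2 held a match to the hairpin search: Alas2, the erythroid first enzyme of heme synthesis, in its 5′ untranslated region, and Keap1, the NRF2 adaptor, in its coding sequence, a region where 0.609% of genes with a principal transcript had one. Ftmt, mitochondrial ferritin, was at 0 counts in all 7 libraries, as were the rows of the Fthl17 ferritin-like family.

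In the epithelial marker list, Krt18, a keratin of simple epithelia, was at 0.261 CPM in WT, 0.418 to 1.44 CPM with empty vector and 4.23 to 8.06 CPM with fusion, and it rose (log2 fold change 2.85, edgeR adjusted p = 0.030). Foxa1, a factor of luminal cells, had 0 counts in all 3 empty vector libraries, 0.02 CPM in WT, and stood at 2.13, 2.09 and 0.412 CPM with fusion.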
